A study of Homo sapiens with 6 samples.

Results

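The 35 genes described here encode the enzymes and regulators that make long-chain fatty acids, lengthen and desaturate them, and join them to coenzyme A. They were taken by gene symbol from the deposited expression table of LN229 cells and ordered by pathway step. All 35 were found among the 24480 symbols of the table, and 32 passed the filter on low values and were tested. LN229 is an established human glioblastoma line. All 6 libraries came from LN229 cells grown without any treatment named in the labels. The control group, 3 libraries, was transduced with a vector alone, and the other group, 3 libraries, was transduced to overexpress LACTB, a mitochondrial protein related to bacterial beta-lactamases. Neither the promoter driving LACTB nor the choice between pooled cells and a clone is stated in the labels. The title of the study names lipid synthesis as its subject, and the comparison made here asks which transcripts of the pathway differed between LACTB and vector cells.

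Fatty acid synthesis starts in the cytosol. ATP citrate lyase and acetyl-CoA synthetase supply acetyl-CoA, acetyl-CoA carboxylase turns it into malonyl-CoA, and fatty acid synthase joins malonyl units into palmitate with electrons from NADPH. On the endoplasmic reticulum the ELOVL enzymes lengthen acyl chains in a cycle with a ketoreductase, a dehydratase and an enoyl reductase, and the SCD and FADS enzymes insert double bonds. The transcription factor SREBP-1, the product of SREBF1, drives many of these genes, and glioblastoma cells are known for active SREBP-1 and high lipid synthesis.

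Values are normalized read counts, the unit of the deposited table, and LACTB and vector libraries are numbered 1 to 3 as in the labels. Differences are LACTB minus vector on the log2(value + 1) scale, from limma fitted to all 12939 tested genes, and a gene is said to rise or fall where its Benjamini-Hochberg adjusted p was under 0.05. Column totals ranged from 34907025 to 41384269 normalized counts, and the number of reads behind them is unknown. LACTB itself stood at 393 to 515 in vector libraries and at 4078 to 4268 in LACTB libraries, so the labels matched the targeted gene. Of 8 tested glial and glioma markers 4 rose, 3 fell and NES did not pass. SOX2 rose by 1.24, EGFR by 1.41, GFAP by 0.70 and VIM by 0.48, and S100B fell by 1.22, SLC1A3 by 1.65 and OLIG2 by 0.56. SLC1A3 passed the filter of 37.7 only through its vector libraries, with at most 34.8 in LACTB libraries. NES and VIM were at least 23605 in every library, GFAP was 72.3 to 126, and AQP4, SLC1A2 and OLIG1 were at most 12.6. The sum of the 11 markers was 91578 to 98445 in vector and 92868 to 93464 in LACTB libraries. The leukocyte gene PTPRC reached at most 14.6 and the epithelial gene EPCAM at most 2.10. The summed 5 epithelial markers ran from 5866 to 7174 in vector and from 2781 to 3263 in LACTB libraries (2 of 2 tested fell), and the summed 6 microglial and leukocyte markers from 1031 to 1124 and from 1582 to 1683 (1 of 1 tested rose, the lysosomal gene CD68). Fibroblast and adipocyte markers summed to 857 to 994 and to 1585 to 1677 (2 of 4 tested rose, LUM by 1.85 and COL1A1 by 0.66, and DCN fell by 0.72), with PLIN1 at most 8.61. Endothelial markers summed to 236 to 305 and to 170 to 197, where 0 of 2 tested passed and KDR, under the filter, averaged 69.9 and 4.86. Neuronal markers summed to 1662 to 1716 and to 1561 to 1758, where SYT1 rose by 1.65 and the other 3 tested did not pass. Of all tested genes 51.9% were called, and the part of these markers in the results was not tested. Separate cultures are not stated for the libraries, and a p-value then speaks only of the spread among these libraries, which may be technical. In bulk RNA, fewer cells with a transcript and less of it per cell cannot be told apart.

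Of the 32 tested members, 10 rose, 10 fell and 12 did not pass. That is 62.5% called, against 51.9% of all tested genes, so a call by itself sets the members little apart from the background. Rises made up 27.4% and falls 24.6% of all tested genes. The median difference was -0.06 over the members and 0.05 over all tested genes. The vector and LACTB libraries did not overlap for 22 of the 32 members (68.75%), against 59.7% of all tested genes. Of the called members 4 differed by at least 2-fold (background 10.8% of tested genes), namely ACSS2, FADS2 and HACD1, which fell, and ACSL5, which rose, and 8 differed by under 1.5-fold (background 21.3%). By step, both genes of acetyl-CoA supply, FASN, SREBF1, SCD and 2 of 3 FADS genes fell. In contrast, 3 of 7 ELOVL genes and all 4 ACSL members rose. ACSL5 passed the filter only through its LACTB libraries, with a vector mean of 34.7. The ACSL direction depended on the treatment of the values: with transcript length and GC content removed, ACSL3 differed by 0.0 and ACSL4 by -0.08.

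**Figure D1:**
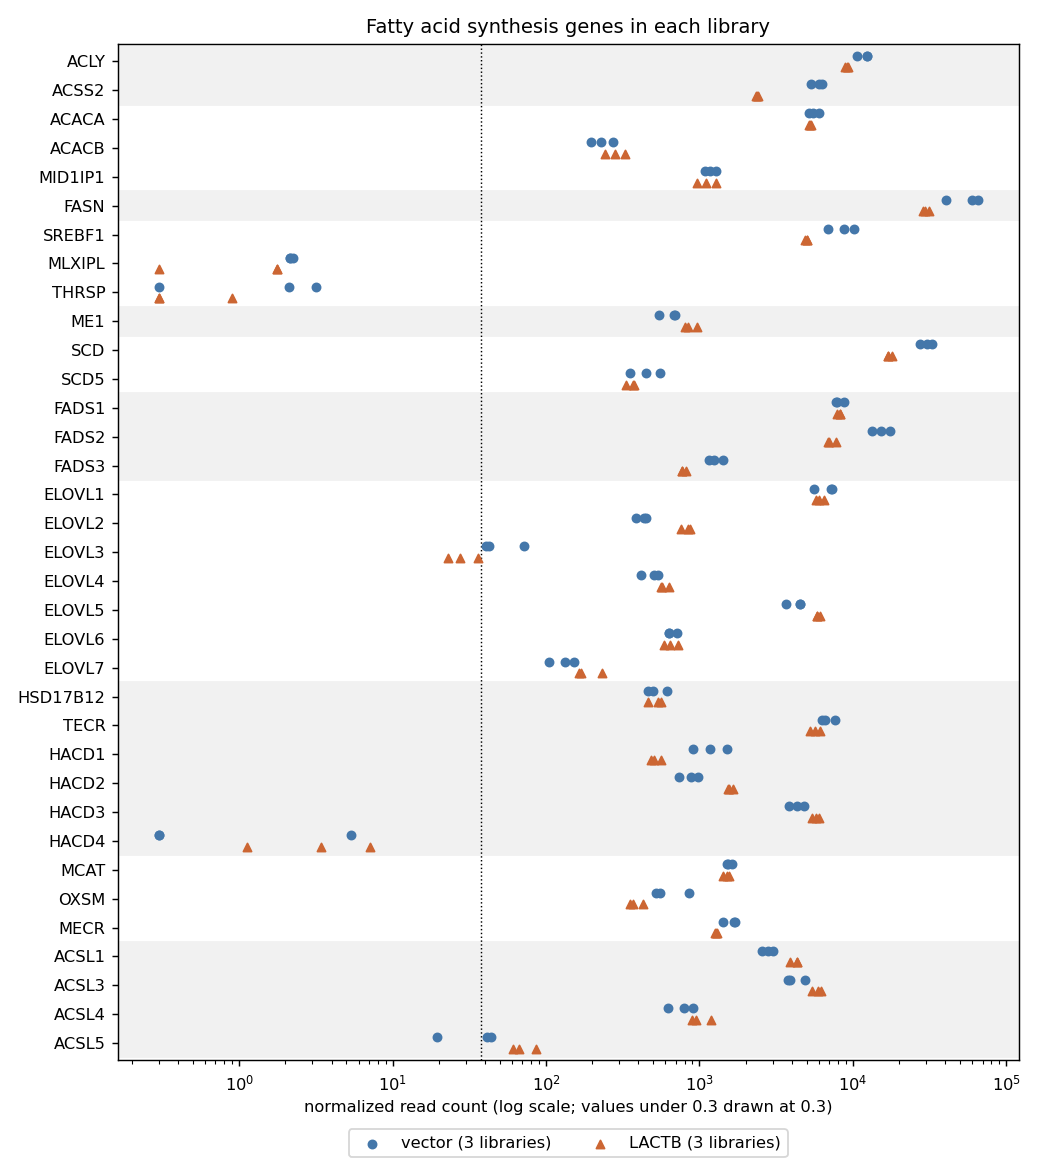
Normalized read count of each of the 35 members in each library, on a log axis, with members in pathway order from top to bottom, grey bands separating steps, and the dotted line at the filter of 37.7 normalized counts; values under 0.3 are drawn at 0.3. The LACTB libraries lie below all vector libraries for ACSS2, FASN, SREBF1, SCD and FADS2 and above them for ELOVL2, HACD2 and ACSL1, and MLXIPL, THRSP and HACD4 lie far left of the filter.

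Promoter sequences are shown for 5 members: ACLY, ACSS2 and SCD, which fell, ELOVL5, which rose, and MID1IP1, which did not pass. They do not stand for their outcomes, as all of them hold the CCAAT letters, against 14 of 32 member promoters. The promoters of SREBF1, FADS2, HACD1 and MECR, which also fell, hold none of the motifs marked here. Each is the 250 bases before the RefSeq start of the gene on GRCh38.p14, in the direction of transcription. The promoters of ACLY, ACSS2 and FADS2 lie inside the GENCODE spans given below for these genes, so RefSeq and GENCODE place the starts differently. Which start the cells use is unknown. Capitals mark matches on either strand to a sterol-response motif of SREBP (TCACNCCAC), the E-box (CACGTG) and the NF-Y box (CCAAT, read as ATTGG on the other strand), and none of these overlapped in the sequences shown.
ACLY, chr17:41919023-41919272, minus strand: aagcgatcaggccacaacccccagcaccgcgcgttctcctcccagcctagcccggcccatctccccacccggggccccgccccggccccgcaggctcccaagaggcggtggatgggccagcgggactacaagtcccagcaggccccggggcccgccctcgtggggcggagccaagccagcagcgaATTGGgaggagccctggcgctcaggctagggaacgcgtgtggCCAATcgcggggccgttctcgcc
ACSS2, chr20:34874739-34874988, plus strand: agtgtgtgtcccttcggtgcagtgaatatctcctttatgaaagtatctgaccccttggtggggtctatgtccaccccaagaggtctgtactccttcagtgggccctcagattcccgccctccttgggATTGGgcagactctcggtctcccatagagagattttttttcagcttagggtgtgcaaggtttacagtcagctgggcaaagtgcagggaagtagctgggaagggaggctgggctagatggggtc
SCD, chr10:100346983-100347232, plus strand: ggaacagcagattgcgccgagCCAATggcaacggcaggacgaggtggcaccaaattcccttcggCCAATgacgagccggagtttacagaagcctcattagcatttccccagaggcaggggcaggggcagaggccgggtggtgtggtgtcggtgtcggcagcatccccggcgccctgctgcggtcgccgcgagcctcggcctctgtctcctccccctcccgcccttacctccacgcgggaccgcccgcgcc
ELOVL5, chr6:53348951-53349200, minus strand: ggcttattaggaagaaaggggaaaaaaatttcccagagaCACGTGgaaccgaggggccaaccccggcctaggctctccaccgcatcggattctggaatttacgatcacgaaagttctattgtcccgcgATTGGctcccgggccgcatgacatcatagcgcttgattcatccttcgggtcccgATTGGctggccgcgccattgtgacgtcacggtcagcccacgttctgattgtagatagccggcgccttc
MID1IP1, chrX:38801209-38801458, plus strand: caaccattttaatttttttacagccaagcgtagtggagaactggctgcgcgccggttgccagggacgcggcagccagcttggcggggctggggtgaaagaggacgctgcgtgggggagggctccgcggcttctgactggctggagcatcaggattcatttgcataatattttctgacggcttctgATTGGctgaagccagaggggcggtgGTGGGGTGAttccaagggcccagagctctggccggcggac

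Promoters were matched for 32 of the 35 members, all but FASN, OXSM and HSD17B12. The CCAAT letters occurred in 14 of the 32 (43.8%), against 33% of 27305 RefSeq promoters of the same length, and the GC-box (GGGCGG, either strand) in 27 (84.4%), against 42.3%. The E-box occurred in 2 member promoters, those of ELOVL5 and ELOVL4 (6.25% against 6.49%). TCACNCCAC occurred in 1, that of MID1IP1, 40 bases before its start (3.12% against 0.875%). CCAAT was present in 4 of the 8 matched promoters of members that fell, in 3 of 10 of members that rose and in 6 of 11 of members that did not pass. These are matches of letters in a short window, not binding sites. The 27305 promoters were not limited to tested genes or matched to the members in GC content, so the shares are not like for like.

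Both member genes of acetyl-CoA supply, ACSS2 and ACLY, fell as deposited. ACSS2, which makes acetyl-CoA from acetate (chromosome 20, 34872146 to 34927962, plus strand, GRCh38), held 6014, 5348 and 6267 in vector and 2424, 2330 and 2384 in LACTB libraries. Every LACTB value was under the lowest vector value by more than a factor of 2. The means were 5876 ± 475 and 2379 ± 47.3 (SD, n = 3 each), a log2 difference of -1.30 (SE 0.11, limma adjusted p = 4.69e-09), and this was the smallest adjusted p of the 32. The median difference of the 50 tested genes nearest to ACSS2 on its chromosome was -0.31, and 715 bases of it lie over GGT7 on the other strand. ACLY, which cleaves exported citrate (chromosome 17, 41866908 to 41930542), held 10693, 12360 and 12361 in vector and 9179, 8886 and 9250 in LACTB libraries. The groups did not overlap, and ACLY fell by 0.37 (adjusted p = 0.00754). Its call ended with quantile normalization (-0.18, adjusted p = 0.127), equal column totals (-0.18, adjusted p = 0.153) and without LACTB library 2 (adjusted p = 0.0539). The ratio of ACSS2 to ACLY within a library, which no single scaling factor per library can change, was 0.562, 0.433 and 0.507 in vector and 0.264, 0.262 and 0.258 in LACTB libraries. Acetate-using ACSS2 was therefore lower relative to ACLY in every LACTB library.

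Transcripts for making malonyl-CoA did not pass. ACACA, the cytosolic acetyl-CoA carboxylase (chromosome 17, 37084988 to 37406818), held 5152, 5982 and 5499 in vector and 5151, 5280 and 5305 in LACTB libraries. The ranges overlapped, and the difference was -0.08 with a 95% interval of -0.30 to 0.15 (adjusted p = 0.57). With length and GC removed it was -0.44 (adjusted p = 0.000179), and with quantile normalization and equal column totals it turned positive, 0.08 and 0.12. ACACB, the carboxylase bound to mitochondria, was expressed at a much lower level, 197, 272 and 230 in vector and 283, 241 and 325 in LACTB libraries (difference 0.28, interval -0.11 to 0.68). MID1IP1, which promotes polymerization of acetyl-CoA carboxylase, held 1080 to 1284 in vector and 970 to 1288 in LACTB libraries (difference -0.08, interval -0.36 to 0.20).

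FASN, the multifunctional synthase that makes palmitate (chromosome 17, 82078333 to 82098332, minus strand), had the highest normalized count of the members in every library, not divided by length. It held 40168, 59365 and 64988 normalized counts in vector and 31379, 28449 and 29356 in LACTB libraries. Vector library 1 was well under the other vector libraries, yet above every LACTB library. FASN fell by 0.85 on the log2 scale (SE 0.14, adjusted p = 4.6e-05), and by 1.06 without vector library 1. With quantile normalization the fall was 0.40 (adjusted p = 0.0248). The median difference of its 50 nearest tested genes was -0.41, or -0.18 with length and GC removed, a treatment under which FASN itself still differed by -0.85. The FASN to ACACA ratio was 7.80, 9.92 and 11.8 in vector libraries and 6.09, 5.39 and 5.53 in LACTB libraries. The groups did not overlap. The log2 shift of this ratio was -0.78 as deposited, -0.48 with quantile normalization and -0.41 with length and GC removed.

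SREBF1, which encodes the precursor of SREBP-1 (chromosome 17, 17810399 to 17837002, minus strand), held 6834, 8793 and 10139 in vector and 5036, 4855 and 5035 in LACTB libraries. It fell by 0.77 (SE 0.13, adjusted p = 3.47e-05), the groups did not overlap, and the median of its 50 nearest tested genes was -0.04. SREBF1 shares 1055 bases with RAI1 on the other strand. MLXIPL, the carbohydrate response factor, and THRSP, a nuclear regulator of lipogenesis, were below the filter. MLXIPL stood at 2.13 to 2.23 in vector and 0.017 to 1.76 in LACTB libraries, and THRSP at 0.0447 to 3.16 and 0 to 0.896, so neither was tested. ME1, the cytosolic malic enzyme that makes NADPH (chromosome 6, 83210389 to 83431071), went the other way from FASN. Its 545, 694 and 678 in vector and 840, 804 and 965 in LACTB libraries did not overlap. ME1 rose by 0.45 (adjusted p = 0.0127), beside a median of 0.36 for its 50 nearest tested genes. That call ended with median centring (adjusted p = 0.0676), quantile normalization (0.29, adjusted p = 0.0868), without LACTB library 3 (adjusted p = 0.0984), and after removal of length and GC (0.15, adjusted p = 0.454).

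**Figure D2:**
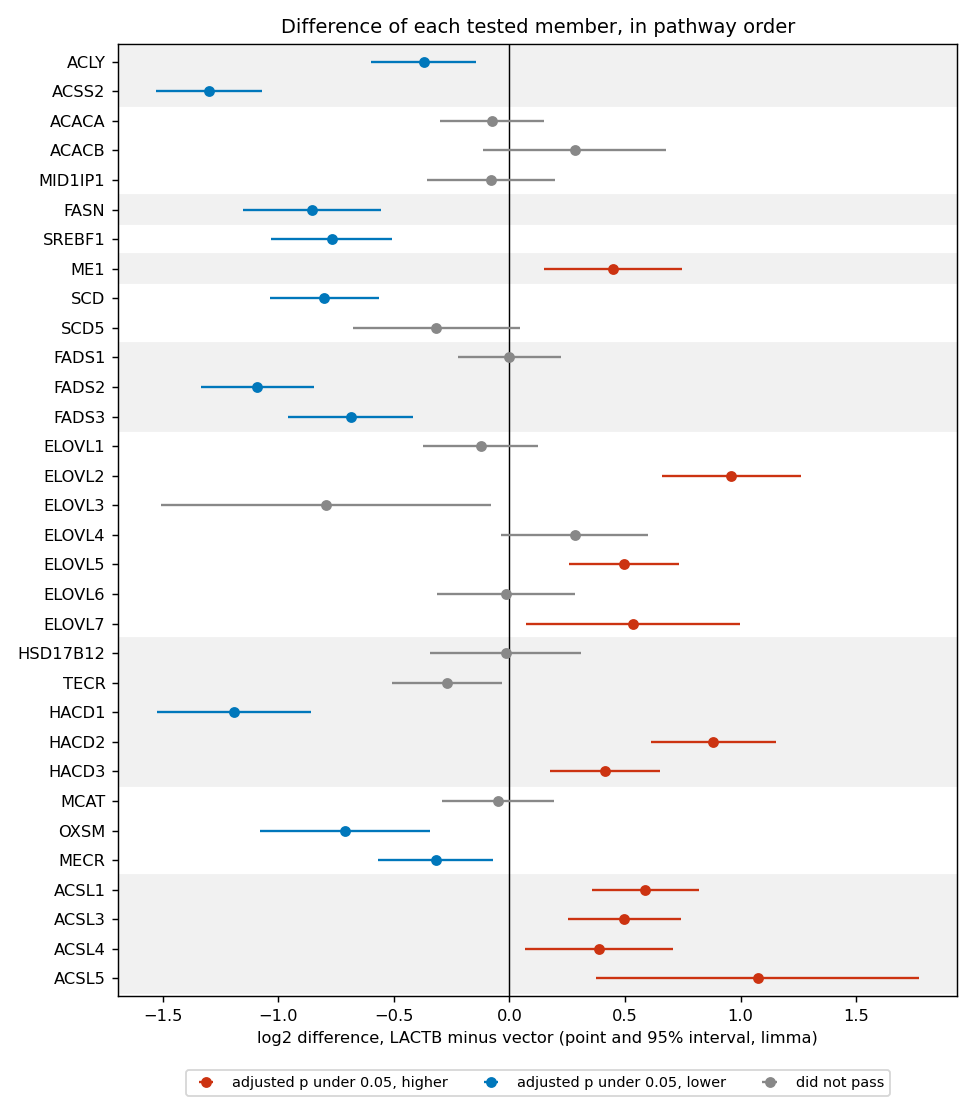
Log2 difference, LACTB minus vector, of each of the 32 tested members with its 95% interval from limma, in pathway order. Red members rose, blue members fell and grey members did not pass; the blue points run from -1.30 for ACSS2 to -0.32 for MECR and the red points from 0.39 for ACSL4 to 1.07 for ACSL5.

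Of the 5 desaturase genes 3 fell. SCD, the stearoyl-CoA desaturase that makes monounsaturated fatty acids (chromosome 10, 100347124 to 100364834, plus strand), held 27487, 32739 and 30474 in vector and 17006, 16915 and 18017 in LACTB libraries. It fell by 0.80 (SE 0.11, adjusted p = 5.76e-06), with tight values in both groups and no overlap, and with quantile normalization by 0.49 (adjusted p = 0.000836). SCD5, the second human SCD gene, prominent in brain, stood at 450, 553 and 353 in vector and 331, 373 and 368 in LACTB libraries. Its ranges overlapped and it did not pass (-0.32, interval -0.68 to 0.05). It did pass with median centring (-0.45, adjusted p = 0.0254), with quantile normalization (-0.52, adjusted p = 0.0126) and without vector library 3 (-0.48, adjusted p = 0.0306). SCD exceeded SCD5 by 59.2 to 86.3 times in vector libraries and by 45.3 to 51.3 times in LACTB libraries, in normalized counts that were not divided by length. The log2 shift of this ratio was -0.49 as deposited, 0.03 with quantile normalization and -0.76 with length and GC removed. The ratio of SCD to FASN was 0.684, 0.551 and 0.469 in vector and 0.542, 0.595 and 0.614 in LACTB libraries, and these ranges overlapped.

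The 3 FADS genes lie side by side on chromosome 11 and encode the front-end desaturases of polyunsaturated fatty acids and their relative FADS3. FADS2, which starts polyunsaturated fatty acid synthesis (61792980 to 61867354, plus strand), held 13401, 15297 and 17480 in vector and 7728, 6839 and 6999 in LACTB libraries. It fell by 1.09 (SE 0.12, adjusted p = 1.6e-07), and no LACTB library reached the lowest vector library. FADS3 (61873519 to 61892051, minus strand) held 1150, 1245 and 1430 and then 819, 771 and 774, and fell by 0.69 (adjusted p = 0.000157). FADS1, which acts later in the same route (61799625 to 61829318, minus strand), stood at 7844, 8742 and 7781 in vector and 8191, 7892 and 8239 in LACTB libraries. FADS1 differed by -0.0009 (interval -0.22 to 0.22, adjusted p = 0.995), with values from -0.13 to 0.19 across the alternative treatments. The ratio of FADS2 to FADS1 was 1.71, 1.75 and 2.25 in vector and 0.944, 0.867 and 0.849 in LACTB libraries, so the order of the 2 counts was inverted in every LACTB library. In GENCODE the spans of FADS1 and FADS2 overlap over 29694 bases on opposite strands, and FADS2 also spans FEN1. No strand setting is stated, so reads in the shared bases cannot be told apart. The median of the 50 nearest tested genes was -0.30 for FADS1 and -0.26 for FADS2, and near 0 for both (-0.02) once length and GC were removed.

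Of the 7 ELOVL condensing enzymes 3 rose and 4 did not pass. Among them, ELOVL2, which lengthens polyunsaturated chains (chromosome 6, 10980759 to 11044314, minus strand), rose most. It held 438, 448 and 385 in vector and 761, 871 and 841 in LACTB libraries, a rise of 0.96 (SE 0.15, adjusted p = 1.29e-05), which was 0.61 with length and GC removed. ELOVL5, the broad elongase of polyunsaturated chains (chromosome 6, 53267398 to 53349179), held 4549, 4500 and 3641 and then 5850, 5829 and 6115, a rise of 0.49 (adjusted p = 0.0011). With length and GC removed ELOVL5 differed by 0.27 (adjusted p = 0.00675). Both groups of both genes were separate. ELOVL7, an elongase of saturated chains, held 132, 152 and 104 and then 163, 169 and 233, and rose by 0.53 with an adjusted p of 0.0498 by limma. Its call was lost with median centring, quantile normalization, no filter or a pseudocount of 0.1, when length and GC were removed (0.16, adjusted p = 0.529), and without any 1 of 5 libraries, all but vector library 2.

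The remaining elongases did not pass. ELOVL6, which lengthens palmitate to stearate, stood at 718, 630 and 631 in vector and 643, 726 and 591 in LACTB libraries (difference -0.016, interval -0.31 to 0.28). With length and GC removed it differed by -0.52 (adjusted p = 0.00242). ELOVL1, which acts on saturated and monounsaturated very long chains, ran from 5562 to 7254 and from 5717 to 6503 (difference -0.12, interval -0.37 to 0.12), and from -0.26 with median centring to 0.24 with length and GC removed (adjusted p = 0.0205). ELOVL4, which makes very long chains, held 415 to 535 in vector and 559 to 635 in LACTB libraries. These did not overlap, and the difference was 0.28 (interval -0.03 to 0.60), reaching 0.48 with equal column totals (adjusted p = 0.0236). ELOVL3 was close to the filter, at 72.1, 42.5 and 40.6 and then 35.9, 23.1 and 27.6. It was tested only through its vector mean of 51.7, and the difference was -0.79 (interval -1.51 to -0.08, adjusted p = 0.058). It passed with median centring (adjusted p = 0.0268), quantile normalization (adjusted p = 0.0458), limma without trend and robust settings (adjusted p = 0.0267) and without LACTB library 1 (adjusted p = 0.0461). Within libraries as deposited, the ELOVL6 to ELOVL5 ratio was 0.14 to 0.173 in vector and 0.0967 to 0.125 in LACTB libraries, and that of ELOVL1 to ELOVL5 was 1.24 to 1.98 and 0.981 to 1.11. With length and GC removed the log2 shift of ELOVL1 to ELOVL5 went from -0.62 to -0.027, and that of ELOVL6 to ELOVL5 from -0.51 to -0.79.

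The dehydratases of the elongation cycle moved in opposite directions. HACD1, the family member best known from muscle (chromosome 10, 17589032 to 17617377, minus strand), held 1523, 914 and 1177 in vector and 565, 502 and 484 in LACTB libraries, a fall of 1.19 (SE 0.16, adjusted p = 3.18e-06). HACD2, which is broadly expressed (chromosome 3, 123490820 to 123585185), held 973, 875 and 739 and then 1564, 1645 and 1532, a rise of 0.88 (SE 0.13, adjusted p = 9.42e-06), and of 0.53 with length and GC removed. In normalized counts HACD1 was above HACD2 in all 3 vector libraries and under it in all 3 LACTB libraries. HACD3 (chromosome 15, 65530418 to 65578352) held 4782, 4324 and 3812 and then 5781, 5388 and 5987 and rose by 0.41 (adjusted p = 0.00449). Its call ended with median centring (adjusted p = 0.0613). Once length and GC were removed it differed by 0.19 (adjusted p = 0.0428). HACD4 was below the filter, with at most 5.35 in vector and 7.15 in LACTB libraries. HSD17B12, the ketoreductase, held 461 to 616 in vector and 460 to 561 in LACTB libraries (difference -0.017, interval -0.34 to 0.31), and -0.40 once length and GC were removed (adjusted p = 0.0211). The span of the annotated gene AC068205.2 overlaps that of HSD17B12 on the same strand over 159473 bases. AC068205.2 averaged 31.9 in vector and 50.1 in LACTB libraries. Spans include introns, and whether the genes share reads was not tested, so the value of HSD17B12 is uncertain to an unknown degree. TECR, the enoyl reductase of the last step, held 6310, 6571 and 7690 and then 6078, 5228 and 5700. Its groups did not overlap and it missed the threshold (-0.27, interval -0.51 to -0.03, adjusted p = 0.051). It passed without vector library 1 (-0.33, adjusted p = 0.00945), without vector library 2 (adjusted p = 0.047), with median centring (-0.41, adjusted p = 0.0105) and with a filter at 5 CPM-equivalents (adjusted p = 0.0487). The span of TECR shares 12686 bases with that of DNAJB1 on the other strand, a gene at 13052 in vector and 12947 in LACTB libraries on average. Whether these genes share reads was not tested either, so the value of TECR is uncertain to an unknown degree.

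Mitochondria have a fatty acid synthesis route of their own, which supplies the precursor of lipoic acid. OXSM, its ketoacyl synthase (chromosome 3, 25782917 to 25794534, plus strand), held 852, 554 and 524 in vector and 371, 353 and 429 in LACTB libraries and fell by 0.71 (SE 0.18, adjusted p = 0.00205). The high vector library 1 did not decide the call. Part of OXSM, 7123 bases, lies over NGLY1 on the other strand. MECR, the enoyl reductase of the route (chromosome 1, 29192873 to 29230942), held 1670, 1422 and 1702 and then 1294, 1273 and 1261, and fell by 0.32 (adjusted p = 0.0305). Its call ended with equal column totals (-0.13, adjusted p = 0.361), with length and GC removed (-0.05, adjusted p = 0.624), without a filter (adjusted p = 0.065), with limma without trend and robust settings (adjusted p = 0.055) and without vector library 3 or any 1 LACTB library (adjusted p from 0.076 to 0.111). MCAT, the malonyl transferase of the same route, held 1507 to 1636 and 1431 to 1562 (difference -0.05, interval -0.29 to 0.19), and 0.33 once length and GC were removed (adjusted p = 0.00386).

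Long-chain acyl-CoA synthetases, which activate fatty acids for use in membranes, storage or oxidation, rose in all 4 members as deposited, though not under every treatment. ACSL1 (chromosome 4, 184755595 to 184826818, minus strand) held 2785, 3007 and 2556 in vector and 4324, 3903 and 4313 in LACTB libraries, a rise of 0.59 (SE 0.11, adjusted p = 0.000168). The median of its 50 nearest tested genes was 0.40, and with length and GC removed ACSL1 rose by 0.40 beside a neighbour median of 0.21. ACSL3, a synthetase of lipid droplets and endoplasmic reticulum (chromosome 2, 222860934 to 222944639), held 3868, 4839 and 3765 and then 5405, 6175 and 5944, and rose by 0.50 (adjusted p = 0.00139), but with length and GC removed it differed by 0.0 (adjusted p = 0.998). ACSL4, which prefers arachidonic acid (chromosome X, 109624244 to 109733403), held 912, 791 and 619 and then 946, 1188 and 891. These ranges overlapped. ACSL4 rose by 0.39 (adjusted p = 0.0392), a call lost with median centring, quantile normalization and plain limma settings, without vector library 2 or 3 or LACTB library 1 or 2, and after length and GC were removed, when the difference was -0.08. ACSL5 (chromosome 10, 112374018 to 112428380) was near the filter, at 41.4, 19.3 and 43.4 and then 85.5, 66.4 and 60.5. Its vector mean of 34.7 was under the filter of 37.7, so it was tested only through its LACTB mean of 70.8. ACSL5 rose by 1.07 (SE 0.34, adjusted p = 0.0109). Without vector library 2, its lowest library, the ACSL5 difference was 0.71 (adjusted p = 0.0662), and without LACTB library 1 it was 0.93 (adjusted p = 0.0507). A pseudocount of 1 CPM-equivalent gave 0.59, and 3953 bases of ACSL5 lie over ZDHHC6 on the other strand. Proportions among the synthetases overlapped between groups, with log2 shifts of 0.11 for ACSL3 to ACSL4 and 0.09 for ACSL1 to ACSL3. These were 0.37 for ACSL3 to ACSL4 with quantile normalization and 0.40 for ACSL1 to ACSL3 with length and GC removed.

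**Figure D3:**
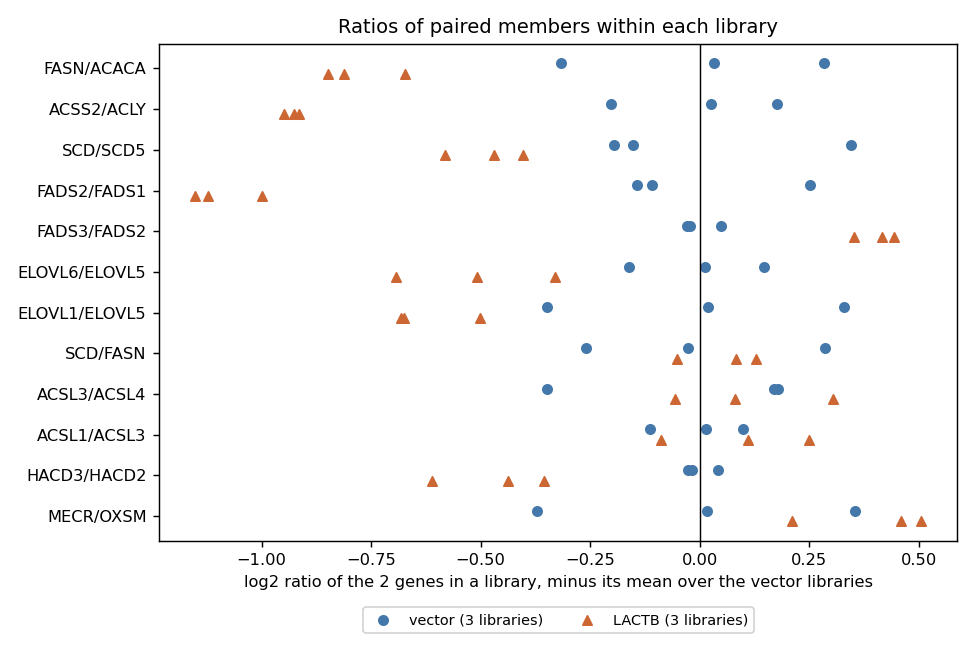
Log2 ratio of 2 members measured in the same library, for 12 pairs, drawn relative to the mean of the vector libraries (circles, vector; triangles, LACTB; 3 libraries each). The groups are separate for 8 pairs, with the largest shift for FADS2/FADS1 (-1.09), and overlap for SCD/FASN, ACSL3/ACSL4, ACSL1/ACSL3 and MECR/OXSM.

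Ratios were compared for 12 pairs of members, on the log2 scale with a pseudocount of 1. The groups did not overlap for 8 of them. For these the exact permutation test, two-sided, gave p = 0.1, the smallest that 3 against 3 allows, and 0.15 after Benjamini-Hochberg adjustment over the 12 pairs, so no pair could pass. The largest shifts were -1.09 for FADS2 to FADS1, -0.93 for ACSS2 to ACLY and -0.78 for FASN to ACACA. FADS3 relative to FADS2 shifted by 0.40, and by 0.13 with quantile normalization. HACD3 relative to HACD2 shifted by -0.47, and by -0.25 with quantile normalization. FADS2 to FADS1 shifted by -1.10 and ACSS2 to ACLY by -1.01 with that normalization, and by -0.99 and -0.78 with length and GC removed. Of the overlapping pairs, SCD to FASN shifted by 0.05 and MECR to OXSM by 0.39.

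Per kilobase of the longest annotated transcript, the order of the members differed between the groups. In vector libraries FASN and SCD led, with 4690 to 7588 and 5126 to 6106 normalized counts per kilobase, followed by ELOVL1 with 3423 to 4464. FASN and SCD overlapped each other in that group. In LACTB libraries ELOVL1 led, with 3518 to 4002, and FASN and SCD followed at 3321 to 3664 and 3155 to 3360, all close together. ELOVL1 was above both within each LACTB library and under both within each vector library. Which transcript the cells use is unknown, so these levels per length are approximate. Summed, the 35 members made up 0.388%, 0.499% and 0.474% of all normalized counts in vector and 0.371%, 0.362% and 0.375% in LACTB libraries. FASN and SCD, the members with the highest counts, made up 0.164%, 0.242% and 0.231% in vector and 0.136%, 0.130% and 0.135% in LACTB libraries. The other 33 members, a split made after the values were seen, took 0.225% to 0.257% in vector and 0.232% to 0.240% in LACTB libraries, so the share of the rest overlapped.

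Transcript GC content went along with the direction of the members. The 10 that rose had a GC content of 36.4% to 45.1% (median 40.1%), and the 10 that fell had 40.7% to 65.3% (median 54.4%), against a median of 48.3% over all tested genes. HACD1 and OXSM were the members that fell with a GC content inside the range of those that rose. The part of GC content in these differences was measured only by removing a spline on length and GC from every library, after which 8 members rose and 12 fell. These were not all the same members as before. ME1, ELOVL7, ACSL3 and ACSL4, which rose as deposited, and MECR, which fell, no longer passed. The 8 included ELOVL1 and MCAT, and the 12 included ACACA, ELOVL6 and HSD17B12, none of which passed as deposited. Of the 20 called members, 11 kept direction and call in every one of 18 alternative treatments each, namely ACSS2, FASN, SREBF1, SCD, FADS2, FADS3, HACD1 and OXSM, which fell, and ELOVL2, HACD2 and ACSL1, which rose. Among the members that rose, the median of the 50 nearest tested genes was 0.36 to 0.40 for ME1, ELOVL2, ELOVL7, ACSL5 and ACSL1. It was 0.01 (ACSL3) to 0.20 (ELOVL5) for the other rises. For the members that fell it ran from -0.405 (FASN) to 0.24 (OXSM). With length and GC removed these medians ran from -0.07 (HACD3) to 0.255 (ELOVL7) and from -0.19 (ACSS2) to 0.06 (SREBF1). The part of neighbouring genes in the differences was not tested.

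**Figure D4:**
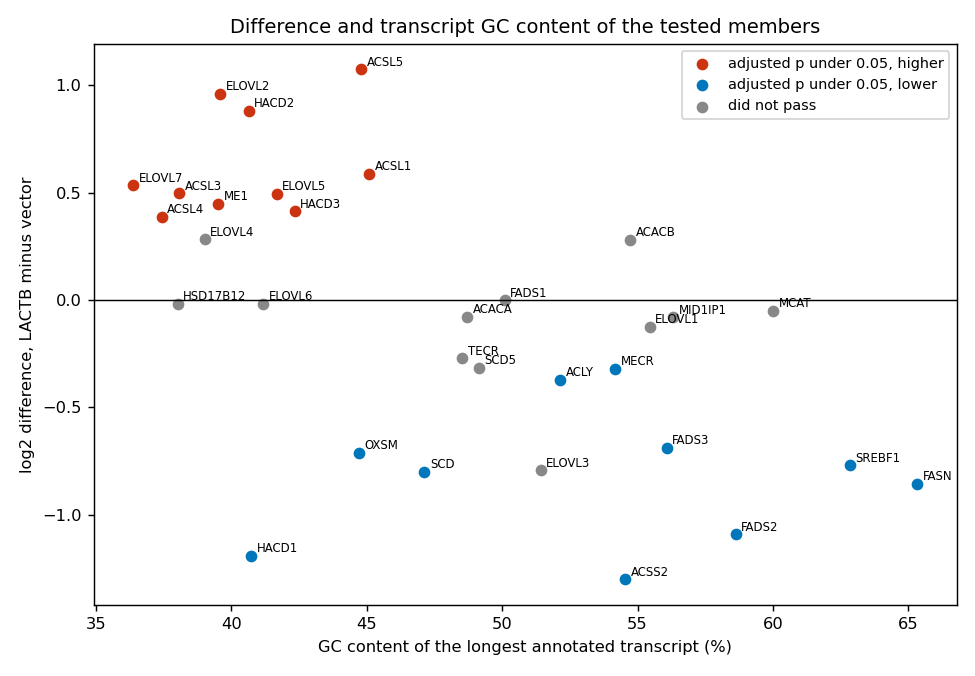
Log2 difference, LACTB minus vector, against the GC content of the longest annotated transcript, for the 32 tested members (red, rose; blue, fell; grey, did not pass). All 10 members that rose lie between 36.4% and 45.1% GC, and the blue members reach from 40.7% for HACD1 to 65.3% for FASN.

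The counts of rises and falls also moved with the scaling of the libraries. Equal column totals shifted the median of all tested genes from 0.05 to 0.24, and median centring shifted it to -0.09. The share of all calls that were rises was 52.7% as deposited, 72.3% with equal column totals and 39.3% with median centring. With equal column totals 11 members rose and 8 fell, with a member median of 0.13. With median centring 6 rose and 13 fell (member median -0.20), and with quantile normalization 7 rose and 11 fell.

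**Figure D5:**
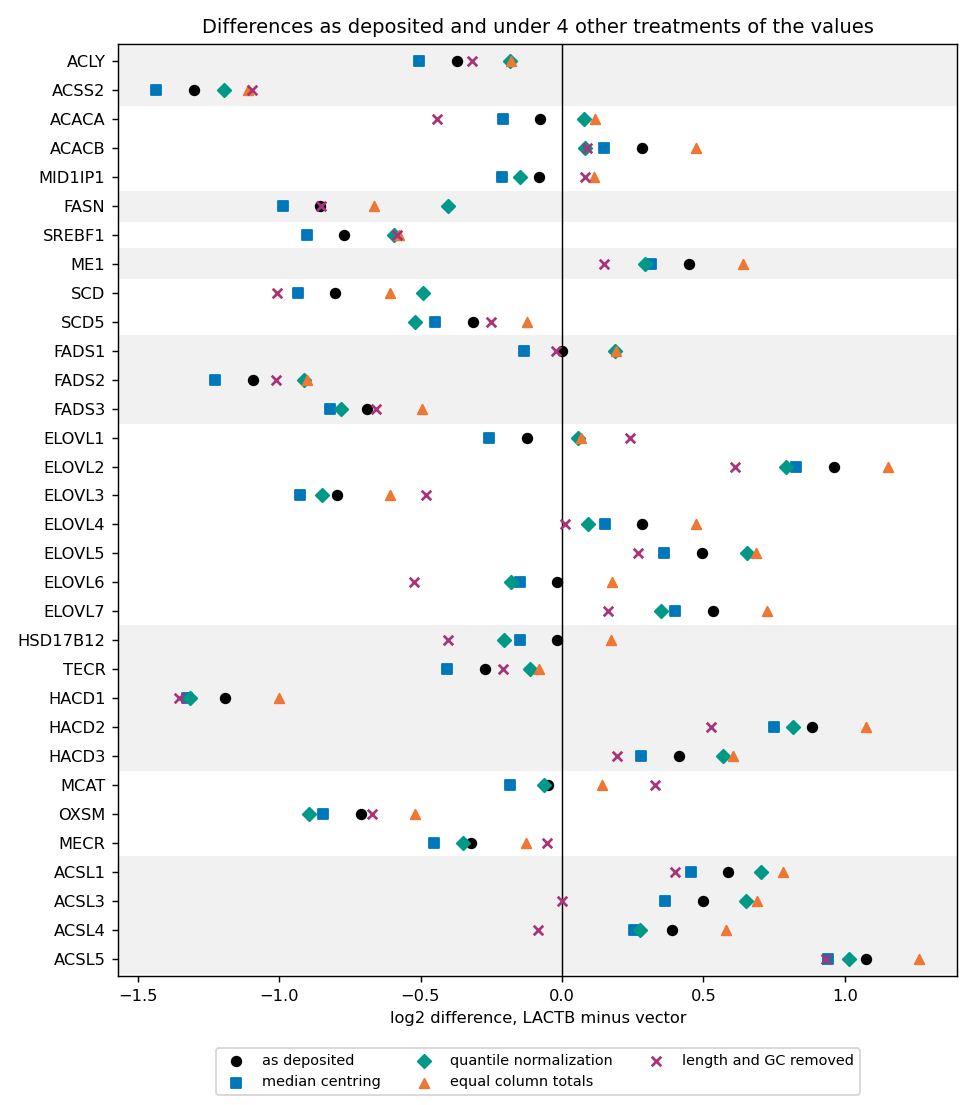
Log2 difference, LACTB minus vector, of the 32 tested members as deposited and after median centring, quantile normalization, equal column totals, or with length and GC removed. ACSS2, FADS2 and HACD1 stay at or under -0.90 in all 5. ACACA, MID1IP1, FADS1, ELOVL1, ELOVL6, HSD17B12 and MCAT, and ACSL4 among the members that rose, lie on both sides of 0.

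Genes around the pathway were read from the same fit, by counts and medians, and up to 3 per list are named by smallest adjusted p. For every list count, the share over all tested genes was 51.9% called, 27.4% as rises and 24.6% as falls. No list was tested against that share. Of 12 tested genes of citrate and acetyl-CoA supply, 4 fell (median -0.23), 7 with median centring, and 2 rose and 2 fell with equal column totals. The mitochondrial propionate and acetate activators ACSS3 and ACSS1 fell by 2.31 and 0.72, and the citrate carrier gene SLC25A1 fell by 0.39. In NADPH supply 2 of 12 rose and 1 fell (median 0.08): the mitochondrial transhydrogenase gene NNT rose by 0.70, malic enzyme ME2 rose by 0.55, and mitochondrial isocitrate dehydrogenase IDH2 fell by 0.79. With quantile normalization 7 of these genes rose, with equal column totals 5, and with length and GC removed 4 rose and 3 fell. As deposited, the median of the 50 nearest tested genes was 0.53 for NNT, 0.44 for ME2 and 0.004 for IDH2. Of 19 genes of SREBP processing and regulation 5 rose and 6 fell (median 0.006). INSIG1, the sterol-dependent retention factor, fell by 0.82, and ERLIN1, a membrane protein that binds sterols, rose by 0.57. The count of rises was 3 with length and GC removed.

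Among 12 tested genes that control acetyl-CoA carboxylase 6 rose and 3 fell (median 0.22), against 27.4% and 24.6% of all tested genes. PRKAA1, a catalytic subunit of AMP-activated protein kinase, rose from 700 ± 161 to 1481 ± 160 (log2 difference 1.10), its regulatory subunit gene PRKAG2 rose by 0.74, and BRCA1, which binds phosphorylated carboxylase, rose by 1.01. With length and GC removed 3 of the 12 rose. Of 7 cytochrome b5 and reductase genes, listed as electron supply to desaturases, 3 rose and 3 fell (median 0.10). The reductase genes CYB5R2 and CYB5R4 were higher by 1.23 and 0.56 and the cytochrome gene CYB5B lower by 0.50. CYB5RL rose by 0.49, and CYB5A and CYB5R1 fell by 0.40 and 0.38. CYB5R3 had the highest counts of the list, 17176 in vector and 18367 in LACTB libraries on average, and did not pass (0.10). Whether each of these genes serves the desaturases in these cells was not tested. The count of falls was 0 with equal column totals. Fatty acid uptake and binding genes rose in 4 and fell in 7 of 12 cases (median -0.49). The fatty acid receptor CD36 fell from 86.9 ± 41.7 to 16.7 ± 7.61, and it passed the filter only through its vector libraries. The lysolipid transporter MFSD2A fell by 1.19 and the binding protein FABP6 by 1.25. The count of rises was 0 with length and GC removed, 2 without vector library 3 or LACTB library 3, and 1 without LACTB library 2.

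Other acyl-CoA synthetases and transport proteins fell in 4 of 6 tested cases (median -0.44), against 24.6% of all tested genes. The list also holds ACSL6, untested under the filter, at 5.47 to 16.9 in vector and 0.033 to 5.41 in LACTB libraries. ACSBG1, also under the filter, averaged 68.5 and 5.91. The difference between this list and the 4 ACSL members was not tested. SLC27A1 fell by 0.86, and SLC27A5 and the mitochondrial malonyl-CoA synthetase gene ACSF3 fell by 0.46 each. With equal column totals 1 of the 6 fell, and without vector library 3 or LACTB library 2 the count was 2. Of 8 thioesterase genes 4 fell (median -0.40), among them ACOT7 by 0.67, ACOT8 by 0.48 and THEM4 by 0.42, and 2 fell with equal column totals. Of 6 partners of mitochondrial synthesis, NDUFAB1, the mitochondrial acyl carrier protein and a complex I subunit, fell from 7204 ± 1211 to 3972 ± 166 (log2 difference -0.85). LIPT1 and AASDHPPT, with differences of 0.65 and 0.40, did not pass, and with equal column totals 2 genes of the list rose, while with length and GC removed 3 fell. Without vector library 1, vector library 2 or LACTB library 1 the count of rises was 1. Of 20 cholesterol synthesis genes, which share the SREBP family of factors, 15 fell (median -0.60), and FDPS, DHCR7 and MVD fell by 1.08, 0.90 and 0.86.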

How the data were processed

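RNA-seq was measured in 6 LN229 libraries. Per the labels' protocols, total RNA was taken with Trizol and chloroform, followed by NEB library construction. The submitters' processing notes name HISAT2 and hg38. For the counter, annotation, strand setting and normalization, the method is not given in sources used here. The authors deposited a signal table of normalized read counts that are not whole numbers. Whole reads could not be recovered (at best 52.3% of low values were whole, tolerance 0.05), so count models were left out.

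Values under 1e-10 were set to 0, and 9 symbols with repeated rows kept their higher-mean row. Tested genes had means over all 6 libraries of 1 CPM-equivalent or more (37.7 normalized counts, from the mean column total) and numbered 12939. In R 4.3.3, limma 3.58.1 was fitted with group as the only term, trend and robust on, on log2(value + 1), two-sided, adjusted over all tested genes, and was tested on simulated data. The design allowed for counts or scaled values; the branch for scaled values was applied. Positions, lengths and GC content came from GENCODE 29 (GRCh38), with length and GC for 98.2% of tested genes, and promoters from RefSeq. Plots used Python 3.11.15 and matplotlib 3.10.9.

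All 35 members were named, and from each other list the 3 tested genes with the smallest adjusted p. 1 of these genes is not reported here. Members and lists were chosen with earlier results of these data known. Alternatives covered scaling, filter, pseudocount, limma settings, the replicate block, length and GC, thresholds and leaving out each library.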

Additional observations from a re-analysis of the deposited data

How the results depend on the processing

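The number of members that rose, 10, was 6 with median centring, 6 at an adjusted p threshold of 0.01 and 4 when at least 1.5-fold was also asked, and ran from 7 to 9 when 1 library was left out. The number that fell, 10, ran from 8 to 11 on leaving out 1 library and from 8 to 13 over all alternatives. The count of all genes called was 6721 and became 3971 with the 1.5-fold minimum. Deviations of same-numbered libraries of the 2 groups had correlations of 0.023, 0.18 and 0.0034, and those of differently numbered libraries ran from -0.19 to 0.16. With 3 libraries per group these values cannot decide whether the numbers pair samples. With the replicate block 10 members rose and 10 fell. Not every library correlated best with its own number. These direction changes occurred, all but 3 of them without passing the threshold on either side. Equal column totals gave 0.115 for ACACA, 0.112 for MID1IP1, 0.191 for FADS1, 0.067 for ELOVL1, 0.176 for ELOVL6, 0.175 for HSD17B12 and 0.141 for MCAT. Quantile normalization gave 0.078 for ACACA, 0.188 for FADS1 and 0.058 for ELOVL1. Removing length and GC gave 0.083 for MID1IP1, and gave 0.24 for ELOVL1, 0.329 for MCAT and -0.084 for ACSL4, the 3 exceptions. Leaving out 1 library at a time gave ranges of -0.186 to 0.018 for MID1IP1, -0.031 to 0.053 for FADS1, -0.094 to 0.053 for ELOVL6, -0.107 to 0.103 for HSD17B12, -0.076 to 0.196 for the ratio SCD/FASN and -0.065 to 0.199 for the ratio ACSL3/ACSL4. For ratios, quantile normalization and removal of length and GC were chosen after seeing the data. They gave 0.03 for the ratio SCD/SCD5 (quantile only), and -0.087 and -0.157 for the ratio SCD/FASN. The cause of these changes was not tested. The read depth is unknown, and no value here shows what it limits.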
